A study of Mus musculus with 3 samples.

Results

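The suppressors of cytokine signalling, Cish and Socs1 to Socs7, were examined for PU.1 binding in mouse pro-B cells. The members were the peaks that overlapped the RefSeq span of any of these 8 genes, extended by 20 kb on each side. They came to 47 of the 74494 peaks of replicate 2, 5 of the 6169 peaks of replicate 3 and 40 of the 49385 intervals of the merged list. PU.1 is the product of Spi1 and belongs to the ETS transcription factors, which bind purine-rich DNA with a GGAA core.

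Chromatin came from i660BM, a pro-B cell line of strain C57BL/6 grown with interleukin-7, which carries a doxycycline-inducible PU.1. Both PU.1 libraries, numbered 2 and 3 in their titles, came from cells treated with 70 ng/ml doxycycline for 24 h and precipitated with the same rabbit polyclonal antibody to PU.1. The third sample was input DNA with no antibody, and its signal is not analysed here. Both PU.1 libraries were induced, so binding that depends on induction cannot be told apart from binding that does not, and the labels do not state whether separate cultures were used. The authors' peak score is taken as -10 log10 of the p-value of a peak, the MACS convention, and is compared only within its own list. Replicate 3 stands apart by its short list, so counts and densities rest mainly on replicate 2. The lowest score was 70.0 in both lists, and the median was 232 in replicate 2 and 136 in replicate 3. The highest replicate 3 score was 3100, a value that 2656 replicate 2 peaks reached or passed. Coordinates are 1-based on mm10.

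SOCS proteins are feedback inhibitors of cytokine receptors that signal through JAK kinases and STAT factors, as the interleukin-7 receptor does through Jak1, Jak3 and Stat5. Each has an SH2 domain that binds phosphorylated tyrosines and a SOCS box that recruits Elongin B, Elongin C and Cullin 5 to mark bound proteins for degradation. Cish and Socs1 to Socs3 are the members best known as genes switched on by STAT factors, and Socs1 and Socs3 also block JAK kinases directly.

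The promoter sequences show where a STAT-type or interferon-type match lies at members that differ in PU.1 peaks at the start. They are from RefSeq on GRCm38.p6, which has an entry for 4 members, Cish, Socs1, Socs3 and Socs4. The lines for Socs1 and Socs3 give the 250 bases before the annotated start, 5′ to 3′ on the strand of the gene, at chr16:10785537-10785786 and chr11:117969367-117969616, both on the minus strand. The Cish line gives 24 bases at the annotated start, chr9:107296657-107296680 on the plus strand. Capitals mark matches to TTCNNNGAA, the STAT type, in Cish and Socs3, and to a letter pattern of interferon response elements (GAAA, any 2 bases, GAAA) in Socs1.
Cish: ttTTCCTGGAAagTTCTTGGAAat
Socs1: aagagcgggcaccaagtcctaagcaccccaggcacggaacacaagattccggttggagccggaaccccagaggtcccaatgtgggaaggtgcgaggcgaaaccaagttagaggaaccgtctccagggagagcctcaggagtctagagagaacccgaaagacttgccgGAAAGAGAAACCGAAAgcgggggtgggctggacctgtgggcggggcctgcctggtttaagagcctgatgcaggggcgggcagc
Socs3: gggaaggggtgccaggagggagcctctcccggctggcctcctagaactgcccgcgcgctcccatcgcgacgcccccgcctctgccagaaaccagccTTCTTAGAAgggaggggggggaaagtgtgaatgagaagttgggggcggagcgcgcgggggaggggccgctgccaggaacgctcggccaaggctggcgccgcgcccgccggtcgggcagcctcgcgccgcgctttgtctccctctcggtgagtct
In Cish the matches TTCCTGGAA and TTCTTGGAA begin at bases 1 and 12 counted from the start. At least 1 match to TTCNNNGAA lay in 8.30% of the 32851 promoter windows of the table, which run from 250 bases before to 50 after the start, and 2 or more in 0.457%. In Socs3 the match TTCTTAGAA begins 154 bases before the start. The Socs1 capitals are the overlapping matches GAAAGAGAAA and GAAACCGAAA, which begin 83 and 77 bases before the start. The interferon-type pattern was chosen after the Socs1 sequence was read, and 3.44% of all promoter windows hold it. GAGGAAGT, a PU.1-type ETS site, was held by 3.20% of windows, and the shorter AGGAAG by 35.4%. Neither was found on either strand in the windows of the 4 members. Only exact letters were sought, and peak sequence beyond these windows was not read, so sites elsewhere under the peaks remain unknown. The GGAA core alone was not counted, and it occurs in each of the printed lines. The Socs4 window held none of the 4 patterns. TTCNNNGAA reads the same on both strands, and AGGAAG lies within GAGGAAGT.

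Every one of the 8 genes had a replicate 2 peak in its window, against 84.2% of the 21887 protein-coding genes. A merged interval was present at 8 of 8, against 76.1%. Replicate 3 had a peak at 3 of 8, namely Socs2, Socs3 and Socs4, against 24.1% of protein-coding genes. The same 3 genes held a replicate 2 peak that overlapped a replicate 3 peak, as did 24.2% of protein-coding genes. Most genes of the genome thus have a replicate 2 peak in a window this wide, and the members' share is near that background.

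Other windows set the genes apart by distance. With the span alone, 7 of 8 had a replicate 2 peak (61.4% of protein-coding genes) and 7 of 8 a merged interval (53.5%), Socs3 being the gene without either. Replicate 3 had a peak in the span of Socs4 alone, 1 of 8, against 11.7%. At 5 kb each side the counts were 8 for replicate 2 (70.7%), 8 for the merged list (62.6%) and 2 for replicate 3 (15.1%), the last being Socs2 and Socs4. At 50 kb they were 8 (92.6%), 8 (85.9%) and 4 (37.7%), with Cish added in replicate 3.

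**Figure D1:**
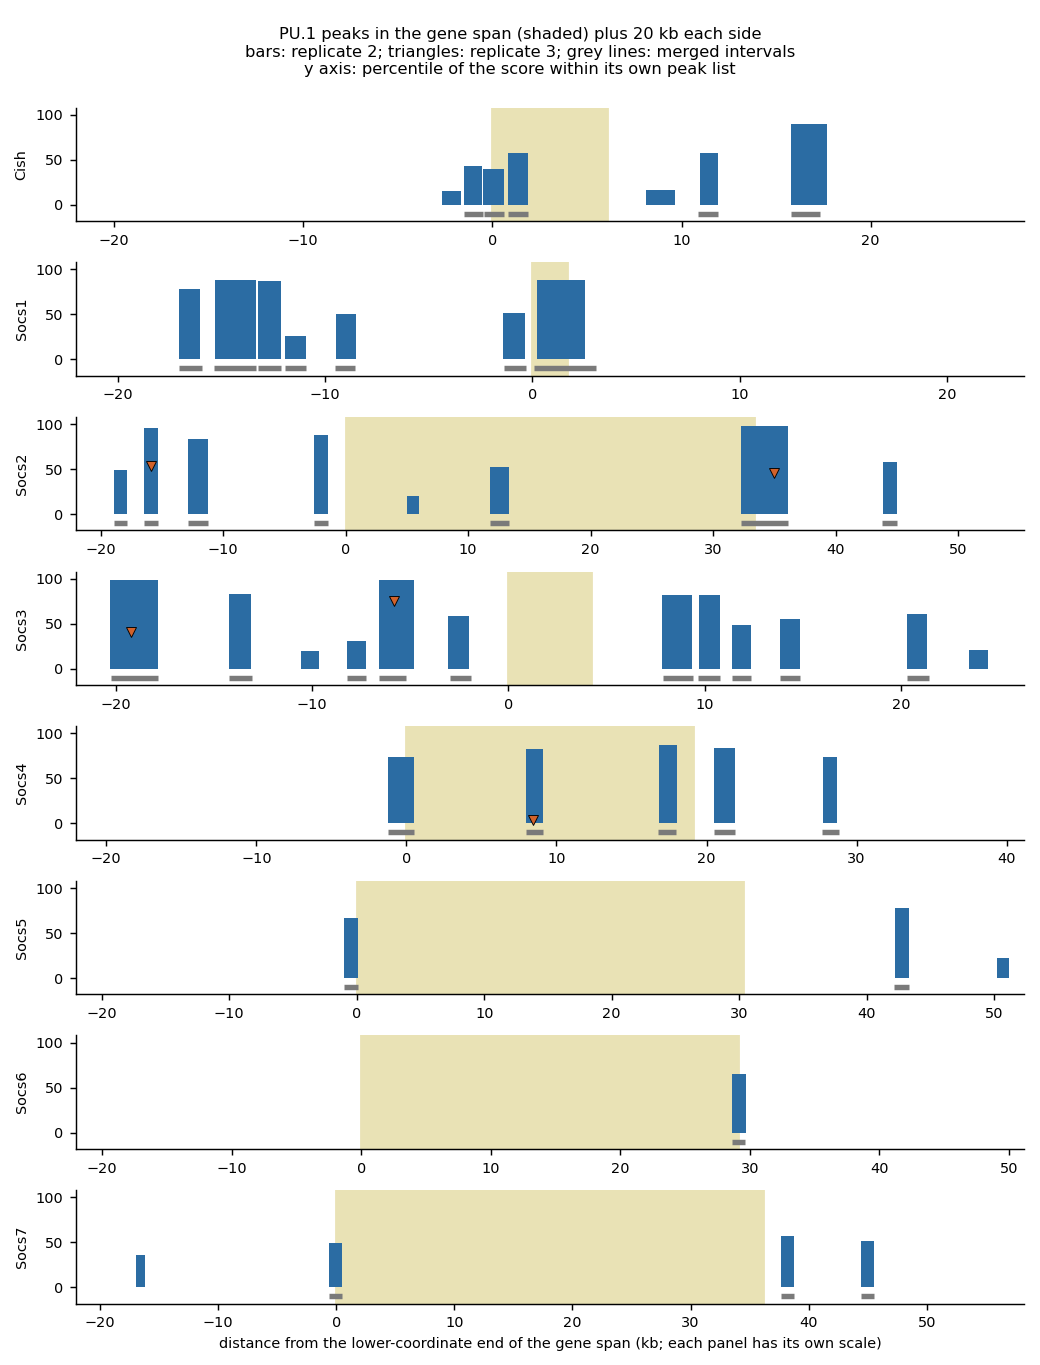
Peaks in the window of each gene, by distance in kb from the lower-coordinate end of its span (shaded), with the percentile of the score within its own list on the y axis. Bars are replicate 2 peaks, triangles replicate 3 peaks and grey lines merged intervals; the 5 triangles sit at Socs2, Socs3 and Socs4, and the Socs3 span itself is empty.

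The number of replicate 2 peaks ran from 12 at Socs3 and 8 at Socs2 through 7 each at Cish and Socs1 to 5 at Socs4, 4 at Socs7, 3 at Socs5 and 1 at Socs6. The median over all protein-coding genes was 3. Cish and Socs1 to Socs3 thus held 34 of the 47 peaks and Socs4 to Socs7 held 13. Windows differ in length, from 41.7 kb at Socs1 to 76.3 kb at Socs7. Per 10 kb of window, Cish and Socs1 to Socs3 had 1.09 to 2.71 peaks and Socs4 to Socs7 had 0.14 to 0.84, so the ranges did not overlap. The median over all protein-coding genes was 0.41. Densities at Cish and Socs1 to Socs3 lay above those of 91.7% (Socs2) to 99.9% (Socs3) of protein-coding genes. Those at Socs4 to Socs7 lay above 21.0% (Socs6) to 82.6% (Socs4). In replicate 3 the groups held 4 and 1 peaks, with 0.27 per 10 kb at Socs2, 0.45 at Socs3, 0.17 at Socs4 and 0 at the other genes. This split follows the known division of the family but was chosen after the values were seen, and it is a description with no test. The ranges overlapped within 5 kb of the spans, at 0.92 to 3.72 and 0.25 to 1.37 peaks per 10 kb. They also overlapped in the spans alone, at 0 to 5.78 and 0.28 to 1.56. At 50 kb each side they did not, at 0.97 to 1.73 and 0.38 to 0.81. Spans ran from 1.73 to 33.4 kb at Cish and Socs1 to Socs3 and from 19.2 to 36.3 kb at Socs4 to Socs7. The densities were not adjusted for this.

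**Figure D2:**
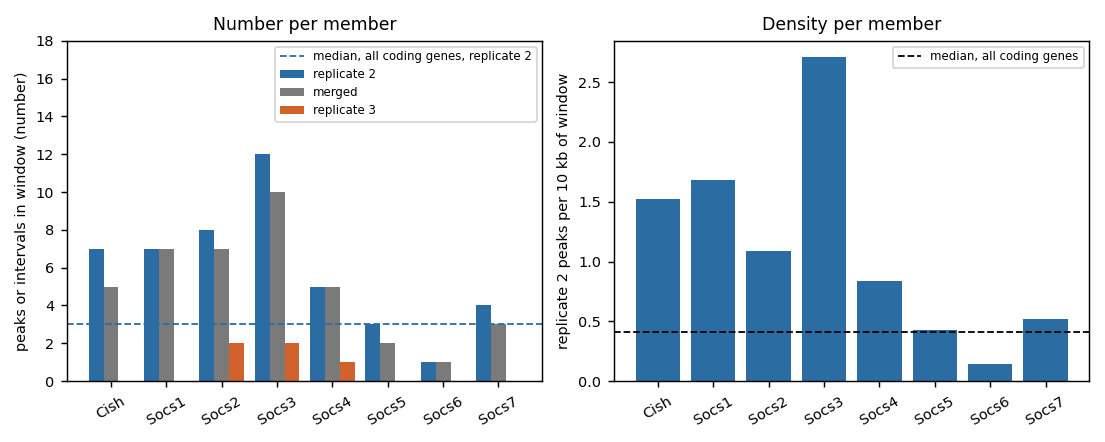
Left, the number of replicate 2 peaks, merged intervals and replicate 3 peaks in the window of each gene; right, replicate 2 peaks per 10 kb of window. Dashed lines are medians over all protein-coding genes (3 peaks; 0.41 per 10 kb); Socs3 has the tallest bars, with 12 peaks and 2.71 per 10 kb.

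Socs3, the inhibitor of receptors of the interleukin-6 type and of JAK kinases, had the most replicate 2 peaks per 10 kb of the family in the window of 20 kb each side. Its value of 2.71 lay above that of 99.9% of protein-coding genes. The order depends on the window: at 5 kb each side Cish had 3.72 per 10 kb and Socs3 2.10, and in the span alone Socs1 had 5.78 and Socs3 none. None of its 12 peaks touched its span (chromosome 11, 117966079 to 117970336), and 6 lay on each side. The peak at 117959475 to 117961246 scored 3100 in replicate 2 and 227 in replicate 3, where it stood at percentile 74.8 of the list. Its centre lay 5.7 kb beyond the end of the span opposite the annotated start. A second pair lay farther out on the same side, centred 19.1 kb from the span in replicate 2 (117945801 to 117948237), with scores of 3100 and 117. Socs3 therefore had its best peaks in both libraries on the downstream side of the gene.

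On the upstream side of Socs3 the 6 replicate 2 peaks scored 106 to 972 and had no replicate 3 partner. The closest of these, at 117973908 to 117975410 with a score of 972, was centred 5.3 kb before the annotated start. A score of 948 followed at 117975751 to 117976867. The outermost 2 lay inside Pgs1, a gene of phospholipid synthesis, with scores of 347 and 106. No peak of any list overlapped the promoter window that holds TTCTTAGAA.

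Socs2, a regulator of growth hormone and STAT5 signalling, was the other gene with 2 replicate 3 peaks. A wide replicate 2 peak of 3870 bp (chromosome 10, 95416157 to 95420026) covered the higher-coordinate end of the span and scored 3100. The replicate 3 peak within it (95417843 to 95419869) scored 128, at percentile 46.2 of its list. It overlapped the non-coding RNA gene 5730420D15Rik, which begins 54 bp beyond the Socs2 span, and its own edge lay 0.5 kb outside that span. The other shared site, at 95367396 to 95368569, was centred 15.9 kb below the span, with scores of 2967 and 145. Between it and the gene, replicate 2 alone had peaks scored 1070 and 1388, and within the gene body peaks scored 104 and 252. Just outside the window, 25.4 kb below the span, a further shared site (95357301 to 95358483 in replicate 2) scored 3100 and 377, above both replicate 3 peaks inside it. Its nearest protein-coding gene was Socs2.

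Cish, whose protein binds receptors at the sites used by STAT5, had 7 replicate 2 peaks and none in replicate 3. A peak over the start (chromosome 9, 107296165 to 107297254), centred 50 bp after it, scored 169 and covered both STAT-type matches printed for Cish. It stood at percentile 40.1 of the replicate 2 list. Neighbouring peaks scored 183 centred 1.0 kb before the start and 311 centred 1.4 kb after it. The best score, 1564, belonged to a peak 1905 bp wide at 107312440 to 107314344, centred 10.6 kb beyond the far end of the span. The best site of Cish thus lay downstream, and the scores around its start fell on both sides of the list's median of 232. The nearest replicate 3 peak within 50 kb of the span lay 41.9 kb away in 6430571L13Rik, with scores of 134 in replicate 3 and 2993 in replicate 2.

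Socs1, the inhibitor of interferon and interleukin-7 type receptors, had 7 replicate 2 peaks and none in replicate 3. The highest score at the gene, 1458, belonged to a peak of 2295 bp (chromosome 16, 10784034 to 10786328) that covered the annotated start and the whole stretch printed for Socs1. Its centre lay 355 bp after the start. A peak scored 248 was centred 0.9 kb beyond the downstream end. A group of 5 further peaks lay 9.0 to 16.6 kb beyond the downstream end, led by scores of 1419 at 10768486 to 10770456 and 1374 at 10770557 to 10771668. On the upstream side, beyond the start peak, the window held no peak of any list. That side carries Tnp2, Prm3, Prm2 and Prm1, genes of the sperm chromatin proteins.

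Scores at the start thus differed within the group. Socs1 reached 1458 and Cish 169 in replicate 2, at percentiles 88.2 and 40.1 of the list, and Socs3 had no peak there.

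Socs4, known from work on epidermal growth factor receptor signalling, had 5 replicate 2 peaks and 1 replicate 3 peak. The shared site lay inside the gene (chromosome 14, 47284885 to 47286021), centred 8.5 kb after the start, with scores of 1029 and 73.0. The replicate 3 score is near the lowest of its list, at percentile 3.6. A peak over the start (47275664 to 47277444) scored 604 and also covered an end of Wdhd1, a DNA replication gene whose span ends 59 bp from that of Socs4. The best replicate 2 score at Socs4, 1373, was inside the gene at 47293772 to 47294944 and had no replicate 3 partner. Scores of 1117 and 633 belonged to peaks overlapping the neighbouring gene Mapk1ip1l, the first of which also overlapped Gm35078.

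Socs5, like Socs4 linked to the epidermal growth factor receptor, had replicate 2 peaks scored 445, 787 and 110. The one scored 445 (chromosome 17, 87106296 to 87107373) covered the lower-coordinate end of the span, where the non-coding RNA gene Gm30510 overlaps Socs5. The best was centred 12.4 kb above the span. The last reached the edge of the window, with its centre 20.3 kb away.

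Socs6, an inhibitor of signalling by the receptor Kit, had a single replicate 2 peak. It scored 407 and covered the higher-coordinate end of the span (chromosome 18, 88893794 to 88894874). Outside the window, a peak scored 1318 lay 40.0 kb below the span.

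Socs7, which binds insulin signalling adaptors, had 4 replicate 2 peaks scored 149 to 302. The peak over the lower-coordinate end (chromosome 11, 97361650 to 97362750) scored 224. The best, 302, was centred 1.9 kb above the span, and the remaining peaks lay in Gpr179 (149) and Arhgap23 (243).

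In total, 7 of the 8 genes had a replicate 2 peak at the start or an end of the span, and Socs3 was the exception. For Cish, Socs1, Socs3 and Socs4 this means the promoter window, and for Socs2, Socs5, Socs6 and Socs7 the stretch within 1 kb of either end of the span. By the same rule 37.7% of protein-coding genes had one. In replicate 3 only Socs2 had such a peak, 1 of 8, against 3.08%. It counted through the wider stretch around an end, as its edge lay 0.5 kb outside the span. How many of the protein-coding genes were judged by each part of the rule was not counted. The shares of members and of all genes may therefore not be like for like. The replicate 2 peaks counted at the 7 genes each covered an end of the span, with scores from 169 at Cish to 3100 at Socs2. For Socs2, Socs5, Socs6 and Socs7 no annotated start was available, so such a peak need not be at the start. Of the 47 replicate 2 peaks, 8 were centred inside a span (17.0%) and 39 outside, where spans made up 33.4% of the window length. In replicate 3 the counts were 1 and 4. Counted by overlap instead of centre, 12 replicate 2 peaks reached a span. The share centred in spans was not computed over all protein-coding genes. The annotation used gives spans without exons, so exonic and intronic peaks were not separated.

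**Figure D3:**
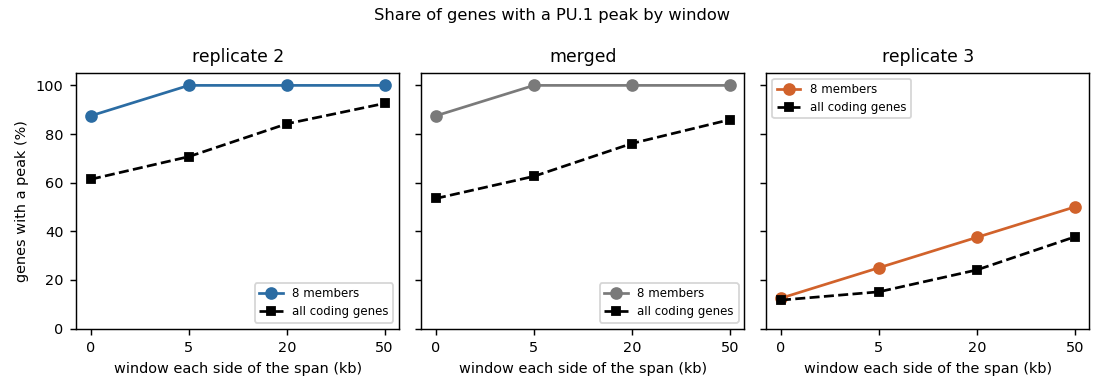
Share of genes with a peak (y axis, percent) against the window added on each side of the span (x axis, kb; not to scale), for each list. Coloured lines are the 8 genes and dashed lines all protein-coding genes; in replicate 3 the members go from 1 of 8 with no added window to 4 of 8 at 50 kb, and all coding genes from 11.7% to 37.7%.

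All 5 replicate 3 peaks lay in a replicate 2 peak, and 5 of the 47 replicate 2 peaks had a partner (10.6%), against 8.24% of the whole list. The median replicate 2 score was 3100 with a partner and 307 without. Each of the 4 peaks scored 2900 or more, at Socs2 and Socs3, had one, as did 95.9% of the 3052 such peaks in the list. Of the 10 peaks scored 1000 to 1600, which lay at Cish and Socs1 to Socs4, 1 had a partner, at Socs4, against 10.6% of 5289 in the list. Cish and Socs1, which had no replicate 3 peak, had best replicate 2 scores of 1564 and 1458, both in this range. Why they had none was not tested.

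The merged list contained 40 of the 47 replicate 2 peaks (85.1%, against 66.5% of the whole list). The 7 left out had scores of 93.2 to 149 and lay at Cish (2 peaks), Socs2, Socs3 (2 peaks), Socs5 and Socs7. The lowest score retained was 119, at Socs1. Of the 40 merged intervals, 7 had both ends in common with a replicate 2 peak.

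The other genes of the pathway came from a list of 40 chosen by role, with earlier results of these data known. All 40 had a replicate 2 peak in the span plus 20 kb, against 84.2% of protein-coding genes, and 38 had a merged interval, against 76.1%. A replicate 3 peak was present at 18 (45.0%, against 24.1%). Receptor subunits, kinases and STAT factors had a replicate 3 peak at 4 of 14, which were Il7r (95.5), Jak1 (143), Stat2 (124) and Stat6 (82.4). Stat5a and Stat5b, the factors downstream of the interleukin-7 receptor, had none, with best replicate 2 scores of 337 and 1605. Among the partners of the SOCS box, 1 of 5 had one, the scaffold gene Cul5 (102). Other inhibitors of cytokine signalling had one at 9 of 13, and target genes of the pathway at 4 of 8. Spans in the list reach 177 kb at Cblb, and longer genes offer wider windows.

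The 5 highest replicate 3 scores of the list belonged to Sh2b3, the gene of the adaptor Lnk (787), Ptpn1 (539), Mcl1, a survival gene (474), Ptprc, the gene of CD45 (395), and Bcl2 (385). The best score of the SOCS genes, 227 at Socs3, lay below all of them. By the pair of best-peak percentiles in the 2 lists, the genes of the list most like Socs3 were Cbl, Bcl2l1 and Pias4, at distances of 5.5, 10.0 and 10.9 percentile points. Those most like Socs2 were Jak1, Stat2 and Pias4, at 3.6, 9.7 and 10.2. Of these genes all but Jak1 shared percentile 98.1 with Socs2 and Socs3 in replicate 2, so apart from Jak1 the distances reflect replicate 3 alone. The best Socs2 peaks of the 2 lists were also different sites, at the gene end in replicate 2 and 15.9 kb below the span in replicate 3. A gene without a replicate 3 peak was placed at percentile 0 in this measure. Socs4, itself at percentile 3.6 in replicate 3, therefore came out closest to Myc, Stat4 and Cblb, which had no replicate 3 peak, and its distances are not given.

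**Figure D4:**
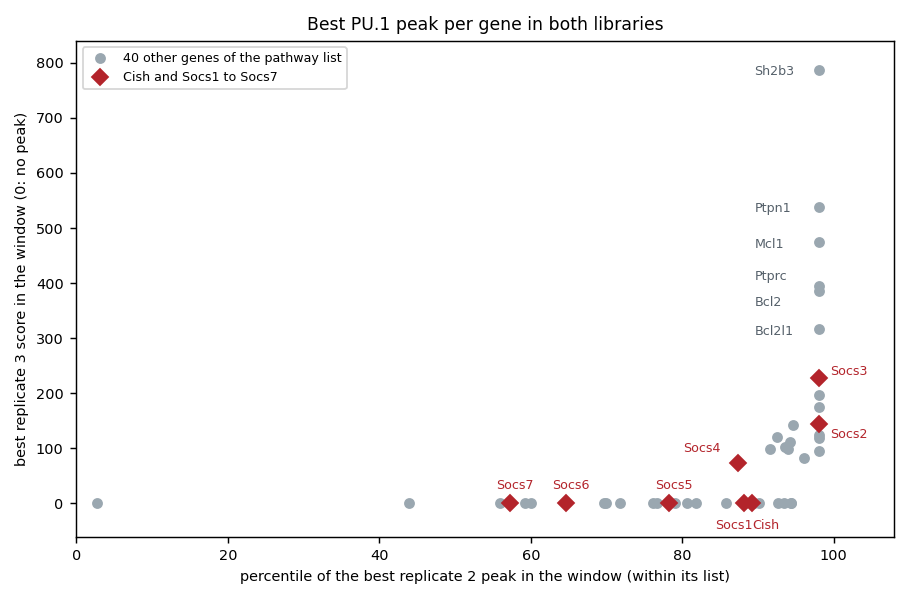
Best peak in the span plus 20 kb for Cish and Socs1 to Socs7 (red diamonds) and 40 other genes of the pathway list (grey circles). The x axis is the percentile of the best replicate 2 peak within its list and the y axis the best replicate 3 score, with 0 for no peak; Socs3 at 227 and Socs2 at 145 are the highest diamonds, below Sh2b3 at 787.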

How the data were processed

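Reads were trimmed, aligned and searched for peaks with Trim Galore, Bowtie and MACS 1.4.1 on mm10, per the submitters' processing notes. The authors deposited 1 peak list per PU.1 library with a score per peak, and a merged list whose score is 0 in every row, used for positions alone. The making of the merged list, the control used in peak calling and the remaining tool versions remain not given in the sources used here. Depth is unknown for both libraries.

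Scripts (Python 3.11.15, pandas 2.3.3) took peaks overlapping the RefSeq span (GRCm38.p6) plus 20 kb by 1 bp or more. Percentiles are within a list. The same rule was applied to 21887 protein-coding genes as the background. Overlap counting was tested on simulated intervals. No p-values were computed: there is 1 group with 2 libraries. Members and lists were chosen with earlier results of these data known. Named are all 8 genes, their best, start and replicate 3 peaks, and from the pathway list the 5 highest replicate 3 scores, genes without a replicate 2 peak (there were none) and the 3 most alike per gene. Other pathway genes, and peaks beyond the window, were named after their values were seen. Alternatives were other windows, a score of at least 100, peak centres and 50% overlap.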

Additional observations from a re-analysis of the deposited data

How the results depend on the processing

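Of 42 alternatives of the counts, 28 stayed within 1.5 times of the reported value. The 8 genes with a replicate 2 peak or a merged interval became 7 with the gene span alone, without Socs3, and stayed at 8 otherwise. Genes with a replicate 3 peak numbered 3, and 1 with the span alone. Genes with a site in both lists numbered 3, and leaving out 1 library gave 3 to 8. Counts of peaks depend on the window by construction: the 47 replicate 2 peaks became 12 with the span alone, 23 at 5 kb and 81 at 50 kb, and the 5 replicate 3 peaks became 1, 2 and 8. The 34 peaks at Cish and Socs1 to Socs3 became 6, 15 and 53, and the 13 at Socs4 to Socs7 became 6, 8 and 28, alternatives chosen after seeing the data. With a score of at least 100, Socs4 lost its replicate 3 peak. No paired analysis was possible because both PU.1 libraries belong to the same group. With 2 libraries and no read counts, the error of a score could not be estimated.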
